A study of Mus musculus with 16 samples.

Results

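Muscle that carried the Mfn2 KO genotype was compared with control muscle at 6 months of age, across all genes the array names. The members were the 8 arrays whose titles put them in the young groups, 4 Mfn2 KO and 4 control, out of 16 in the series, and the other 8 came from mice aged 22 months. Each array measured quadriceps, a fast thigh muscle, from 1 mouse, and 17097 genes were represented by 1 probe set each, the brightest of those that name that gene alone. The controls are called control and the mutants Mfn2 KO in the labels. The driver of the deletion, the deleted part of the gene and the strain are not given in the sources used here. The mice of all groups were fed chow under 12-h light and dark phases. The labels also name a family for each mouse. The young controls 1 to 4 were of families Other, C, D and Other, and the young KO mice 1 to 4 of families C, D, D and Other.

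Mitofusin 2, the product of Mfn2, is a GTPase of the outer mitochondrial membrane that joins mitochondria to one another and links them to the endoplasmic reticulum. Its close relative mitofusin 1 also drives outer membrane fusion, whereas Opa1 fuses the inner membrane and Dnm1l divides mitochondria. In skeletal muscle the shape of the mitochondrial network goes along with fibre type: slow and oxidative fibres hold more mitochondria and burn more fatty acid than fast glycolytic fibres. The comparison asked which transcripts differ in young adult muscle when Mfn2 is targeted.

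All values are log2 signals, on which a difference of 1 is a 2-fold change. Array medians at 6 months lay between 4.61 and 4.65. Arrays of 1 replicate number were alike in spread whatever their genotype, with an SD over probe sets of 1.90 to 1.94 for numbers 1 and 2 and of 1.71 to 1.81 for numbers 3 and 4. The 4 numbers were fitted as a block, following the titles, so that each KO array was read against the control of its own number. The spread by itself sets apart only numbers 1 and 2 from 3 and 4. The tissue label was checked on a marker of fast muscle: the fast myosin heavy chain Myh4 lay between 12.13 and 12.47 in the 8 arrays. This marker cannot tell quadriceps from another fast muscle. Young control replicate 3 stood apart: its mean over 22 fatty acid oxidation genes was 8.52, against 9.18 to 9.58 in the other 7 arrays. It was also the lowest of the 8 in slow fibre genes, so results that rest on it are given with and without it. The number of arrays limits the precision.

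Mfn2 itself, on the brighter of its probe sets, read 8.66, 9.05, 8.03 and 9.45 in controls 1 to 4 and 8.41, 8.49, 8.38 and 8.54 in KO mice 1 to 4. The KO arrays were tightly grouped and lay inside the wide range of the controls, because control 3 was below all 4 of them. The means were 8.80 ± 0.60 in control and 8.45 ± 0.07 in KO muscle (SD, n = 4 each), a difference of -0.34, so that the KO signal was 78.8% of the control signal. Mfn2 was lower in KO in 3 of 4 numbers, and the two-sided exact permutation test over all 70 splits gave p = 0.314 (within the numbers exact p = 0.375, where the smallest possible is 0.125). Without number 3 the difference was -0.57, and without number 4 it was -0.15. The dimmer probe set differed by -0.14, with 4.36 ± 0.76 in control and 4.22 ± 0.66 in KO muscle (SD, n = 4 each, exact permutation p = 0.743). It was lower in KO in 4 of 4 numbers (within the numbers exact p = 0.125, the smallest possible). Where these probe sets lie relative to the deleted part is not given in the sources used here, so a residual signal on them does not check the labels. At 22 months the brighter probe set differed by -0.94 between the genotypes and the dimmer one by 0.13.

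**Figure D1:**
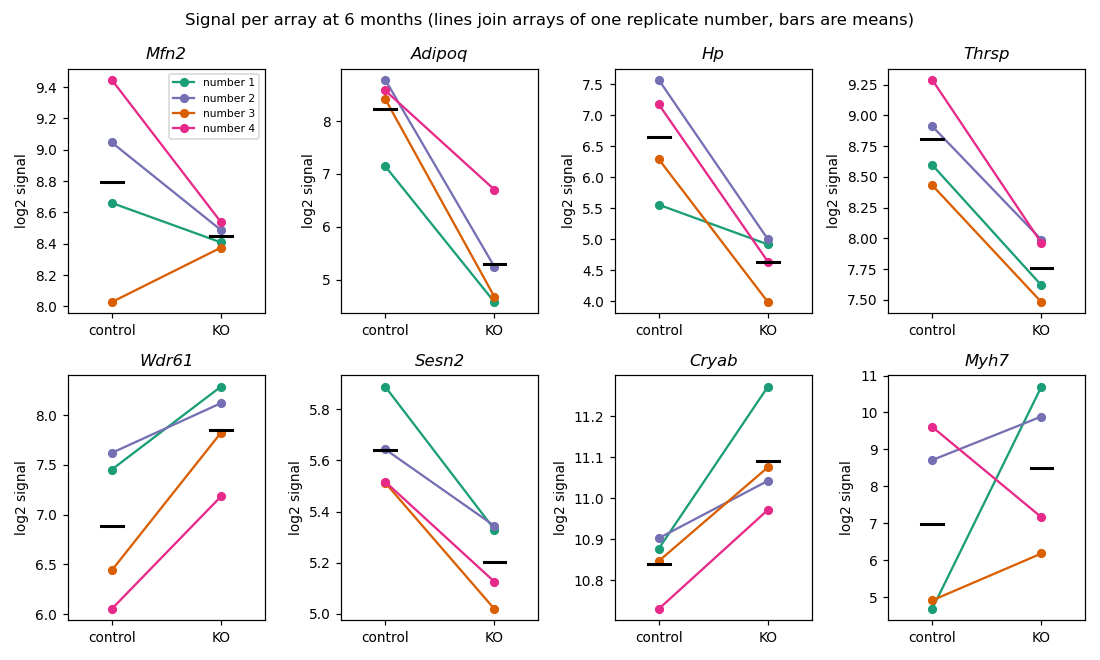
Log2 signal of 8 genes in the 8 arrays at 6 months; each line joins the control and the KO array of 1 replicate number, and black bars are group means (n = 4 each). Adipoq, Hp, Thrsp and Sesn2 are lower and Wdr61 and Cryab higher in KO along all 4 lines, while Mfn2 and Myh7 each have 1 line that runs against the others.

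No gene passed an adjusted p of 0.05 (limma with the replicate block, Benjamini-Hochberg over 17097 genes): 0 genes (0%) were called, and the smallest adjusted p was 0.206. At an unadjusted p under 0.05 the same fit held 1612 genes (9.43%), of which 887 (5.19%) were higher and 725 (4.24%) lower in KO muscle. Without the block it called 0 genes as well and held 291 at that level. The groups did not overlap for 232 genes (1.36%), 113 higher and 119 lower in KO. The direction was shared by all 4 numbers for 1518 genes higher (8.88%) and 1657 lower (9.69%). Everything that follows is therefore a size with its standard error (SE) and not a call. The differences reached furthest on the low side, down to -2.93 for the adipokine gene Adipoq, as the plot of size against p shows.

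**Figure D2:**
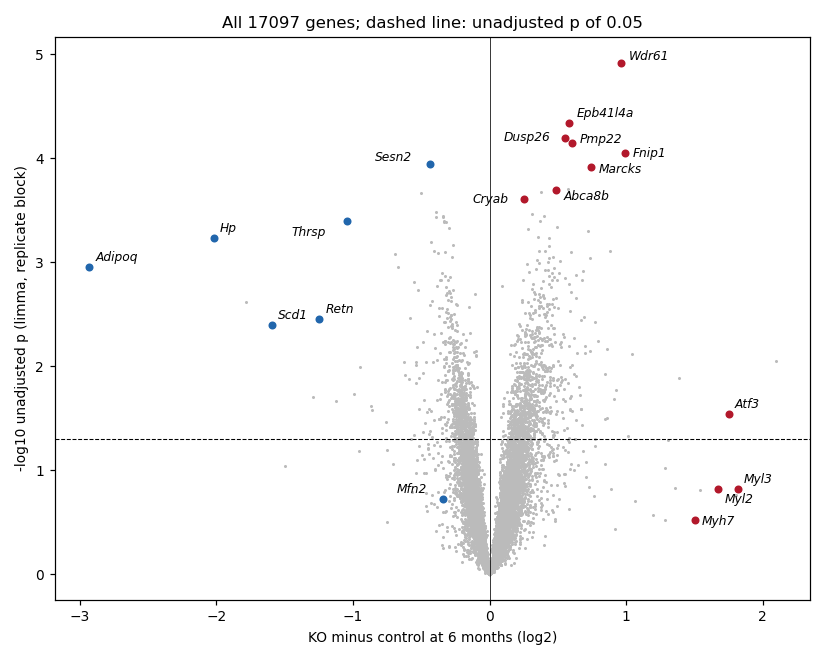
Difference between KO and control at 6 months (log2, x axis) against -log10 of the unadjusted p (y axis) for 17097 genes; named genes are coloured red where higher and blue where lower in KO. Fat-related genes (Adipoq, Hp, Scd1, Retn, Thrsp) form the far left, and slow fibre genes (Myh7, Myl2, Myl3) reach far right at a p above 0.05.

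The 30 genes with the smallest p among those that kept 1 direction in all 4 numbers comprised 18 higher and 12 lower in KO muscle. None passed, their adjusted p running from 0.206 to 0.333. For 10 of them the groups did not overlap. Wdr61, a scaffold shared by the PAF1 transcription and SKI RNA decay complexes, came first. It read 7.45, 7.62, 6.44 and 6.05 in controls and 8.29, 8.12, 7.82 and 7.18 in KO mice, higher by 0.96 (SE 0.15, 1.95-fold) with overlapping groups. Its other probe sets gave 0.02 and 0.26, so the size rests on the brightest one. Fnip1 encodes a partner of folliculin that meets AMPK and mTORC1 signalling in muscle. It read 6.89, 6.95, 5.22 and 5.76 in controls and 7.69, 7.12, 6.96 and 7.0 in KO mice, so that every KO array was above every control. The difference was 0.99 (SE 0.18), and its other 2 probe sets gave 1.12 and 0.81.

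Sesn2, a stress-induced sestrin that restrains mTORC1, was the lower gene with the smallest p. It read 5.89, 5.64, 5.51 and 5.52 in controls and 5.33, 5.34, 5.02 and 5.13 in KO mice. The groups did not overlap, and the difference was -0.44 (SE 0.08, 1.35-fold lower). Its relative Sesn1 went the other way, higher by 0.47 (SE 0.14) in all 4 numbers. A second Sesn1 probe set, nearly as bright, gave 0.17, and the dimmest gave 0.48. Cryab, the small heat shock protein alpha-B crystallin of muscle, read 10.88, 10.90, 10.85 and 10.73 in controls and 11.27, 11.04, 11.08 and 10.97 in KO mice. That is a separation without overlap at a small size, 0.25 (SE 0.05), and the dimmer probe sets of Cryab gave 0.11 and -0.04. Marcks, an actin-binding target of protein kinase C, was higher by 0.74 (SE 0.14), with 0.63 and 0.56 on its other probe sets. Also among the 30 were the phosphatase Dusp26 (0.55, SE 0.10), the myelin gene Pmp22 (0.60, SE 0.11), the membrane skeleton gene Epb41l4a (0.58, SE 0.10) and the transporter Abca8b (0.48, SE 0.10). Casp6, a caspase, was higher by 0.37 (SE 0.08) with no overlap, but by 0.12 on its dimmer probe set. Casp6 and Abca8b were dim, with control means of 4.51 and 4.50, below the array medians. The sphingosine kinase gene Sphk1 was apart on the low side, with -0.33 (SE 0.07) but 0.01 on its other probe set, whereas Ppp2r1b, a scaffold of phosphatase 2A, differed by -0.50 (SE 0.10) with overlap, and by -0.02 on its other probe set.

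Genes of fat cells and fat synthesis included the lowest value of all genes and were mostly lower in KO muscle. Adipoq, which encodes adiponectin, read 7.15, 8.78, 8.42 and 8.58 in controls and 4.58, 5.24, 4.68 and 6.70 in KO mice. Every KO array was below every control, and the difference was -2.93 (SE 0.72, 7.64-fold lower, adjusted p = 0.345). Hp, which encodes haptoglobin, a haemoglobin-binding plasma protein made in liver and fat, read 5.56, 7.57, 6.29 and 7.18 in controls and 4.91, 5.0, 3.98 and 4.64 in KO mice. It did not overlap either, with -2.02 (SE 0.46, 4.05-fold lower, adjusted p = 0.333). Over 12 fits that left out an array or a number the Hp difference ran from -2.64 to -1.77. The -2.64 came without control 1, the control nearest the KO arrays, so that leaving it out widened the difference. Hp was the 1 gene called in that fit (limma, adjusted p = 0.0402), which is no independent support. Thrsp, a lipogenic gene that responds to thyroid hormone and carbohydrate, read 8.60, 8.91, 8.43 and 9.29 in controls and 7.62, 7.99, 7.48 and 7.96 in KO mice. The 4 numbers differed by much the same amount, and the difference was -1.05 (SE 0.23, 2.06-fold lower), with -0.98 on the second probe set.

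Of 12 fat cell markers listed 8 were measured, and of these 8 were lower and 0 higher in KO (all genes: 52.2% lower), 2 at an unadjusted p under 0.05 (25%, against 4.24% of all genes lower), with a median of -0.45 against -0.01 for all genes. The mean level of the 8 ranged from 6.47 to 7.51 in controls and from 6.16 to 6.46 in KO muscle. The median within numbers 1 to 4 was 0.00, -0.44, -0.22 and -1.12, so number 1 showed no shift of the list. Retn, the gene of resistin, read 6.54, 7.74, 7.81 and 8.11 in controls and 6.18, 6.17, 6.29 and 6.59 in KO mice, a difference of -1.25 (SE 0.36). Only control 1 reached into the KO range. Lep, the gene of leptin, was dim, with control 2 at 4.56 and the other 7 arrays between 3.23 and 3.62. The bright fat cell genes Fabp4 (-0.08, SE 0.07) and Car3 (-0.14, SE 0.13) differed by little and turned positive in some alternative fits, and both are also expressed by muscle or its vessels. In whole muscle, fewer fat cells and less RNA per fat cell cannot be told apart.

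Among 21 genes of lipogenesis and lipid droplets 14 were lower, 7 of them at an unadjusted p under 0.05 against 4.24% of all genes, and 1 was higher at that level. The list's median was -0.17, but 0.02, -0.30, 0.02 and -0.49 within numbers 1 to 4, so that numbers 1 and 3 showed no shift, and -0.04 without number 4. Scd1, the stearoyl-CoA desaturase, read 8.06, 10.28, 10.11 and 10.26 in controls and 7.58, 8.31, 7.79 and 8.66 in KO mice. Control 1 again lay with the KO arrays, and the difference was -1.59 (SE 0.46), with -1.87 on the second probe set. Fasn, the fatty acid synthase, differed by -1.0 (SE 0.37, 6.29, 7.58, 7.43 and 8.47 against 6.25, 6.40, 6.57 and 6.56). The adipogenic factors Cebpa and Pparg differed by -0.86 (SE 0.35) and -0.31 (SE 0.12). Acaca and Acly, which make the substrates of fatty acid synthesis, differed by -0.59 (SE 0.21) and -0.54 (SE 0.18), and the lipase gene Lipe by -0.35 (SE 0.16). The exception was Lpl, the lipoprotein lipase that muscle also makes, higher by 0.49 (SE 0.18) in 3 of 4 numbers. The fat cell markers moved with these genes, and their part in the result was not tested.

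The promoters of 3 of these genes are shown because the genes were lower together in all 4 numbers and share an element. Each sequence is the 250 bases before the RefSeq start on the gene's strand (GRCm38.p6), and capitals mark CCAAT or its complement ATTGG, the CCAAT box, which was searched on both strands after the values were seen. Adipoq is at chr16:23146286-23146535 on the plus strand, Thrsp at chr7:97417551-97417800 and Fasn at chr11:120824548-120824797, both on the minus strand.
Adipoq: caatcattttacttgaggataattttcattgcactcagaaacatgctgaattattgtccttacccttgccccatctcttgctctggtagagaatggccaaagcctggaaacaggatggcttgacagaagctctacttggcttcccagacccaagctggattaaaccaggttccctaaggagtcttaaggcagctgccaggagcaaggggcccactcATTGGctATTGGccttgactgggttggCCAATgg
Thrsp: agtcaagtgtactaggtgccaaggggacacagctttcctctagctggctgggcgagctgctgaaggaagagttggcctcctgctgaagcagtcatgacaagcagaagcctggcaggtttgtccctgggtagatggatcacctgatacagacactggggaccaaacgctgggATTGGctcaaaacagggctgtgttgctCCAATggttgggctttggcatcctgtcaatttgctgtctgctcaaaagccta
Fasn: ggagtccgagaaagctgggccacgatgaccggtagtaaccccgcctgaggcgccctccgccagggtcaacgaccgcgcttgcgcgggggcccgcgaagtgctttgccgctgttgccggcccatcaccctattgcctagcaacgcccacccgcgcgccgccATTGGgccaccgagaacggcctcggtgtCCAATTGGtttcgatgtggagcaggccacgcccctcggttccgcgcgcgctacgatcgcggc
Adipoq holds 3 such boxes, Thrsp 2 and Fasn 3, of which 2 overlap. The box is common, present in 33.8% of 32851 promoter windows of this length and in 37.5% of genes with a window. Among genes with a window it was in 1 of 4 fat cell markers (Adipoq), in 9 of 17 lipogenesis genes and in 11 of 22 of the 30 leading genes. Retn and Cebpa, also lower in all 4 numbers, had windows without it. The E-box CACGTG was in 4 of the 22 (Fnip1, Sphk1, Tdg and Utp18) against 6.86% of all genes with a window, and the cyclic AMP element TGACGTCA in 1, Tdg, against 1.77%. These matches describe the letters and say nothing of binding.

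Slow fibre genes had the largest median difference of the 50 lists and the widest spread between numbers. All 11 measured genes of the slow contractile program were higher in KO muscle on average (all genes: 47.8% higher), with a median of 1.29, and 0 of the 11 reached an unadjusted p under 0.05. Myh7, the slow myosin heavy chain, read 4.68, 8.71, 4.91 and 9.61 in controls and 10.70, 9.89, 6.18 and 7.16 in KO mice. Both genotypes thus held low and high arrays, and the difference of 1.51 had an SE of 1.41. Myl3, a slow myosin light chain, read 8.47, 10.92, 6.07 and 10.90 in controls and 11.56, 11.09, 11.08 and 9.90 in KO mice (1.81, SE 1.19). The list's median within numbers 1 to 4 was 3.47, 0.77, 1.82 and -1.5, so number 4 ran the other way. It was 0.37 without number 1, where Tnnt1 and Tnni1 turned to -0.09 and -0.03, and 0.47 without control 3. How much slow-fibre tissue each piece of quadriceps held was not measured, and its part was not tested.

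Fast fibre genes differed by little but evenly. Of 16 measured, 13 were lower in KO, 7 of them in all 4 numbers, and the median was -0.07. At an unadjusted p under 0.05 there were 6 lower (37.5% of the list, against 4.24% of all genes) and 1 higher. Tnni2, the fast troponin I, read 12.21, 12.22, 12.29 and 12.22 in controls and 12.09, 12.07, 12.17 and 12.19 in KO mice. The groups did not overlap at a difference of -0.11 (SE 0.03), but its second probe set gave -0.02. The fast light chain Mylpf (-0.15, SE 0.04), the Z-disc gene Actn3 (-0.15, SE 0.04), tropomyosin Tpm1 (-0.18, SE 0.06), Myl1 (-0.12, SE 0.04) and the creatine kinase Ckm (-0.10, SE 0.03) were close to it in size. Among myosin heavy chains the fastest, Myh4, differed by -0.10 (SE 0.05), whereas Myh1 of the intermediate IIx fibre was higher by 0.25 (SE 0.08), though not on its dimmest probe set (-0.04). Myh2 of the oxidative IIa fibre was higher by 0.68 (SE 0.34), with control 3 at 9.96 and the other 7 arrays between 11.81 and 12.25. Scaling all arrays to 1 spread moved the list's median to -0.16.

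Fatty acid oxidation genes were higher in KO muscle for 21 of 22 members, with a median of 0.24, and 7 were higher at an unadjusted p under 0.05 (31.8%, against 5.19% of all genes). Pdk4, the kinase that turns pyruvate dehydrogenase off when fat is burned, read 9.78, 10.11, 8.64 and 9.89 in controls and 10.47, 10.10, 10.12 and 10.23 in KO mice. Control 3 was far below the others, control 2 lay within the KO range, and the difference was 0.63 (SE 0.22). Acadm, the medium-chain acyl-CoA dehydrogenase, read 9.95, 10.45, 9.70 and 10.06 in controls and 10.60, 10.34, 10.52 and 10.25 in KO mice (0.39, SE 0.14). The carnitine carrier Slc25a20 (0.44, SE 0.18), Decr1 (0.42, SE 0.15), Hadhb of the trifunctional protein (0.30, SE 0.12) and the electron carrier Etfa (0.23, SE 0.10) were higher too. Within numbers 1 to 4 the list's median was 0.40, -0.01, 0.69 and -0.06, so that 2 of 4 numbers carried it. Without control 3 the median was 0.11, still with 21 of 22 higher, but 0 members remained at an unadjusted p under 0.05, and Pdk4 was 0.33. Ucp3, the uncoupling protein that usually accompanies fat burning, was the 1 member on the low side, with -0.26 (SE 0.19) and a lower value in all 4 numbers, but 0.11 on its other probe set. The slow fibre list also had its greatest differences in numbers 1 and 3, and its part in this result was not tested.

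The rest of the mitochondrial program shifted little. Citric acid cycle genes were higher for 18 of 19 members with a median of 0.08 (4 higher, 21.1%, and 1 lower at an unadjusted p under 0.05, against 5.19% and 4.24% of all genes). Without control 3 its median was 0.04 with 15 of 19 higher and 0 higher at that level, and with all arrays scaled to 1 spread it was 0.01 with 10 of 19 higher. Respiratory complex I was higher for 26 of 33 (median 0.04) and complexes II to V for 32 of 40 (median 0.04), yet with the same scaling both medians turned to -0.04. The direction of these lists is thus not fixed by the data. Without overlap and higher in KO were 2 genes of complex I, 1 of the citric acid cycle and 4 of complexes II to V, against 0.661% of all genes. The 4 were Sdhd of complex II (0.29, SE 0.10) and the cytochrome oxidase subunits Cox5b (0.10, SE 0.04), Cox6b1 (0.10, SE 0.04) and Cox7a2 (0.10, SE 0.04). Cox6b1, for example, read 11.55, 11.59, 11.55 and 11.58 in controls and 11.68, 11.63, 11.71 and 11.63 in KO mice. The probe sets of Sdhd and Cox5b can also bind related sequences, and the second probe sets of Cox5b, Cox6b1 and Cox7a2, nearly as bright, gave -0.03, 0.03 and 0.02.

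Mfn2 acts among the genes that shape mitochondria. Of 22 genes of fusion, fission and cristae 17 were higher in KO muscle (median 0.10), 3 of them (13.6%) at an unadjusted p under 0.05, against 5.19% of all genes. Mfn1, the other mitofusin, read 9.79, 9.999, 9.42 and 9.73 in controls and 10.21, 10.16, 10.08 and 9.81 in KO mice. It was higher in all 4 numbers, by 0.33 (SE 0.10, 1.26-fold, adjusted p = 0.392), with KO 4 inside the control range, and its other probe sets gave 0.26 and 0.53. The prohibitin Phb (0.22, SE 0.09) and the inner membrane protease Afg3l2 (0.33, SE 0.14) were also higher, but a second Phb probe set, nearly as bright, gave -0.03. Opa1, at 0.22 (SE 0.13), and the fission GTPase Dnm1l, at 0.24 (SE 0.11), did not reach that level. Without control 3 the list had 13 of 22 higher and a median of 0.04, and Mfn1 was 0.25. Of 21 regulators of mitochondrial biogenesis 17 were higher (median 0.10). At an unadjusted p under 0.05 there were 5 higher (23.8%, against 5.19% of all genes) and 1 lower. Without control 3 the median was 0.07 with 16 higher, 2 of them at that level. Without number 3 it was 0.04 with 14 higher. Tfam, which packages and transcribes mitochondrial DNA, was higher by 0.34 (SE 0.13), the coactivator Ppargc1b by 0.43 (SE 0.18) and the mitochondrial single-strand binding protein Ssbp1 by 0.21 (SE 0.07), each in all 4 numbers, though the dimmer probe sets of Tfam (0.08) and Ssbp1 (-0.03 to 0.09) differed less, while the nuclear receptor Ppard differed by -0.24 (SE 0.09).

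**Figure D3:**
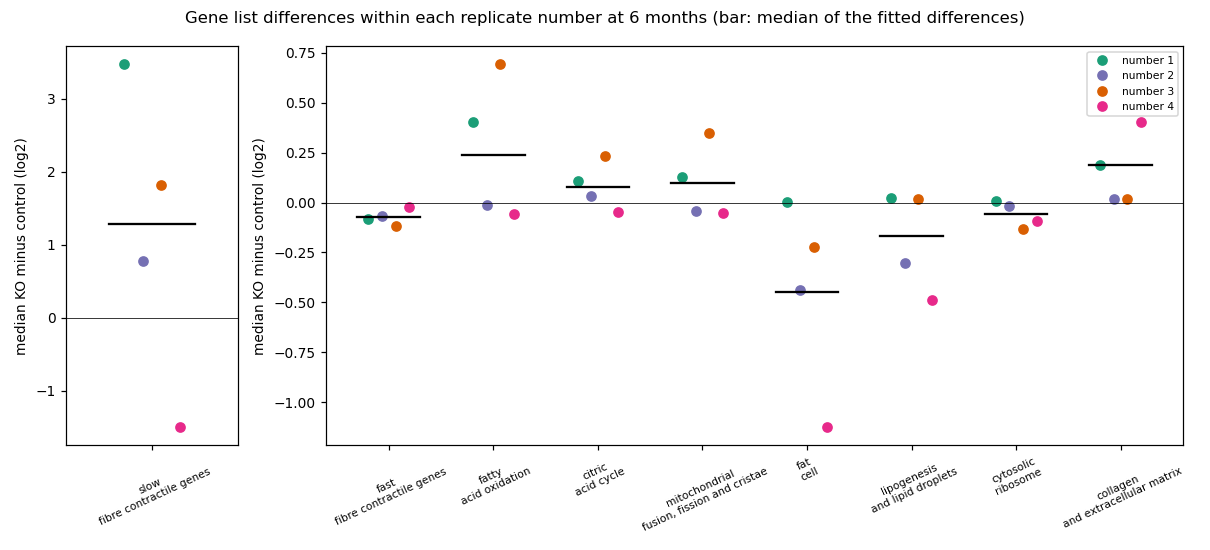
Median difference between KO and control at 6 months (log2) of 9 gene lists within each replicate number (coloured points) and in the fit over all numbers (black bars). Fast fibre genes are below 0 in all 4 numbers at small sizes, slow fibre genes spread from 3.47 to -1.5, and fatty acid oxidation genes are high in numbers 1 and 3 alone.

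Genes of the cytosolic ribosome were lower in KO muscle for 57 of 65 members, at a median of only -0.06. At an unadjusted p under 0.05 there were 12 lower (18.5%, against 4.24% of all genes) and 0 higher, and for 6 the groups did not overlap on the low side, against 0.696% of all genes. Rpl32, of the large subunit, read 8.50, 8.53, 8.49 and 8.63 in controls and 8.41, 8.40, 8.03 and 8.42 in KO mice (-0.22, SE 0.07). All 4 KO arrays were below the controls, KO 3 by far the most. Rps18 (-0.19, SE 0.07) and Rpl35 (-0.12, SE 0.05) were apart as well. Within numbers 1 to 4 the list's median was 0.01, -0.02, -0.13 and -0.09, and without control 3 16 members were higher, and at an unadjusted p under 0.05 there were 4 lower and 1 higher. Ribosomal protein genes have many near-identical copies, which short probes may not separate.

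Stress response and autophagy genes were split in direction, whereas lysosomal genes were mostly higher. Of 23 targets of ATF4, the factor of the integrated stress response that mitochondrial faults can switch on, 8 were higher and 15 lower (median -0.03). Fgf21, a hormone of that response in muscle, differed by -0.18 (SE 0.09). Atf3, a stress-induced transcription factor, read 5.83, 6.78, 4.87 and 5.44 in controls and 8.85, 8.30, 8.50 and 4.27 in KO mice. It was thus well above every control in 3 KO mice and below every control in KO 4 (1.75, SE 0.72). Genes of the unfolded protein response were higher for 13 of 23. Of these Hspa5 (0.15, SE 0.14) and Ddit3 (0.23, SE 0.15) were little different, and the lectin chaperone Canx was higher by 0.25 (SE 0.09). Autophagy genes were split, 14 higher and 13 lower (median 0.00), with the ATG8 relatives Gabarapl1 at 0.29 (SE 0.09) and Gabarapl2 at -0.15 (SE 0.07), and Atg10, an E2-like enzyme, at 0.32 (SE 0.12). Of 9 mitophagy genes 6 were higher, among them the receptor Bnip3 by 0.16 (SE 0.07), and Pink1 differed by 0.08 (SE 0.05). Lysosomal genes were higher for 23 of 29, 9 of them in all 4 numbers (all genes: 8.88%), with medians of 0.07, 0.07, 0.04 and 0.16 within numbers 1 to 4 and Atp6ap2 of the proton pump at 0.35 (SE 0.11). Catalase, Cat, was higher by 0.35 (SE 0.08) in all 4 numbers, and the chaperone Dnajb4 by 0.62 (SE 0.22). Clock genes were lower for 14 of 17 (median -0.08) with 0 at an unadjusted p under 0.05, glycolysis genes for 12 of 21 (median -0.01) and proteasome genes for 20 of 30 (median -0.02).

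Matrix, endothelial, Schwann cell and tendon genes were mostly higher in KO muscle. Of 36 collagen and matrix genes 32 were higher (median 0.19, 4 or 11.1% at an unadjusted p under 0.05, against 5.19% of all genes), among them Col6a3 of the collagen VI network of muscle (0.64, SE 0.21) and the proteoglycan Bgn (0.38, SE 0.14). Col1a1 was higher by 0.37 (SE 0.17), short of that level. Within numbers 1 to 4 the list's median was 0.19, 0.02, 0.02 and 0.40, and without number 4 the fitted median was 0.04. Endothelial markers were higher for 11 of 12, led by the angiopoietin receptor gene Tek, which read 6.99, 7.25, 6.13 and 6.41 in controls and 7.39, 7.48, 6.76 and 7.12 in KO mice (0.49, SE 0.13). The chemokine gene Cxcl12 was higher by 0.55 (SE 0.14), with 0.17 and 0.31 on its other probe sets. It was listed with NF-kB, inflammasome and cytokine genes, of which 14 of 33 were higher and 19 lower (median -0.04). Of 8 Schwann cell markers 6 were higher, 3 at that level (37.5%, against 5.19% of all genes): Pmp22, Mbp (0.44, SE 0.17) and Ncmap (0.33, SE 0.10), all genes of myelin. Tendon markers were higher for 7 of 8 (median 0.51), with Chad at 0.91 (SE 0.35) and Tnmd at 0.63 (SE 0.29). Like the slow fibre genes they were highest in number 1 (1.33) and ran the other way in number 4 (-0.36). Macrophage markers were higher for 13 of 16 (median 0.08), with Adgre1, the F4/80 antigen, at 0.49 (SE 0.20), and interferon genes for 16 of 25 (median 0.06). Without KO 4 these 2 medians were -0.005 and -0.04, and without number 4 in all groups 0.07 and -0.01. Within numbers 1 to 4 the macrophage median was 0.30, 0.12, -0.04 and 0.22, and the interferon median -0.13, -0.01, 0.02 and 0.23. Antigen presentation genes were higher for 10 of 16 (median 0.01). Fibroblast markers were higher for 6 of 9 (median 0.08), but their median was -0.04 without number 4. Fewer were higher among B cell (0 of 7), T and NK cell (3 of 10), granulocyte and mast cell (3 of 11) and satellite cell markers (3 of 8). Smooth muscle and pericyte markers were higher for 7 of 8 and red cell markers for 2 of 3. In controls the mean level was 3.99 to 4.44 for B cell, 4.33 to 4.73 for T and NK cell and 4.11 to 4.54 for granulocyte and mast cell markers. These levels are near or below the array medians of 4.61 to 4.65.

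**Figure D4:**
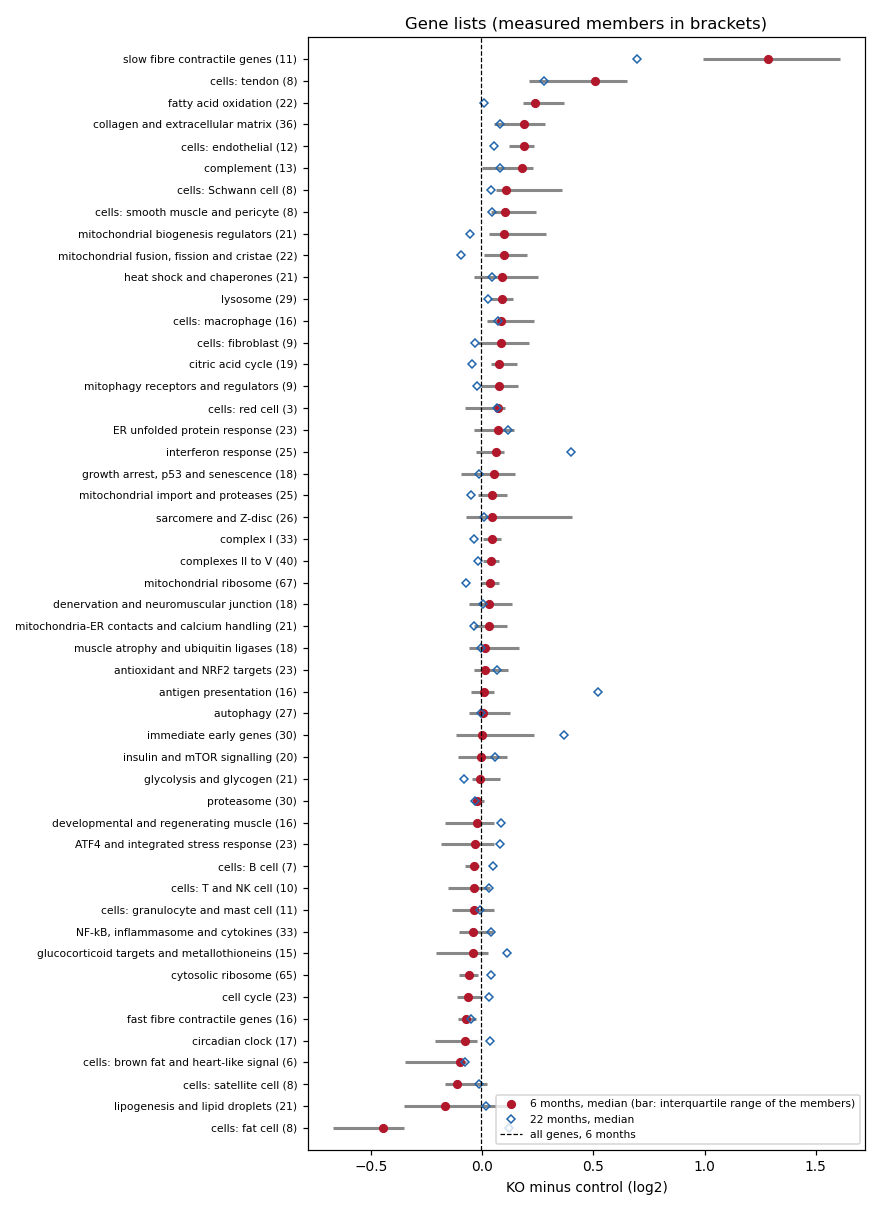
Median difference between KO and control (log2) of 50 gene lists at 6 months (red points, grey bars are interquartile ranges over the members) and at 22 months (blue diamonds); the dashed line is the median of all genes at 6 months. Slow fibre genes lie furthest right and fat cell markers furthest left at 6 months, and interferon and antigen presentation genes lie to the right at 22 months.

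The same genotype contrast at 22 months, in other mice, was fitted in the same model. It called 0 genes (limma, smallest adjusted p 0.380), with 1131 (6.62%) at an unadjusted p under 0.05, 549 higher (3.21%) and 582 lower (3.4%) in KO, and the interaction of genotype and age called 0 genes (smallest adjusted p 0.641), with 1238 (7.24%) at that level, 643 (3.76%) with the greater difference at 6 months and 595 (3.48%) with the lower one. The contrasts at the 2 ages share no arrays, and their differences correlated with r = 0.106 across 17097 genes, which are not independent replicates. The leading fat cell genes were not low in KO at 22 months: Adipoq differed by 0.94 (SE 0.72) at 22 months against -2.93, Hp by 0.53 (SE 0.46) against -2.02, Retn by 0.22 (SE 0.36) against -1.25 and Scd1 by 0.23 (SE 0.46) against -1.59. Each of these has an interaction p under 0.05 before adjustment and none after it. They were picked for their difference at 6 months, which is part of the interaction, so these p-values are no independent support. Thrsp kept its side, with -0.54 (SE 0.23) at 22 months. Wdr61 was 0.12 (SE 0.15) and Fnip1 0.25 (SE 0.18) at 22 months. Of the 30 leading genes 26 had the same sign at 22 months and 26 had an interaction p under 0.05 before adjustment, but they were chosen on the difference at 6 months, so this is a description.

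Gene lists differed between the ages in the same descriptive sense. Cytosolic ribosome genes were higher in KO for 60 of 65 members at 22 months (median 0.04), and 14 of 65 had an interaction p under 0.05 before adjustment (all genes: 3.48%), all with the lower difference at 6 months. Antigen presentation genes were higher for 16 of 16 at 22 months (median 0.52) against 10 of 16 at 6 months, and 8 of 16 reached that interaction level. Interferon genes were higher for 24 of 25 (median 0.40), and immediate early genes for 27 of 30 (median 0.37) against 15 of 30 (median 0.00). The antigen presentation regulator Nlrc5 read 4.36, 3.83, 4.69 and 4.43 in controls and 3.64, 3.78, 4.52 and 4.21 in KO mice at 6 months (-0.29, SE 0.17) and was higher by 0.88 (SE 0.17) at 22 months. Of 25 interferon genes 18 had a promoter window, and 10 of those held the core of the interferon-stimulated response element, against 3.46% of all genes with a window.

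**Figure D5:**
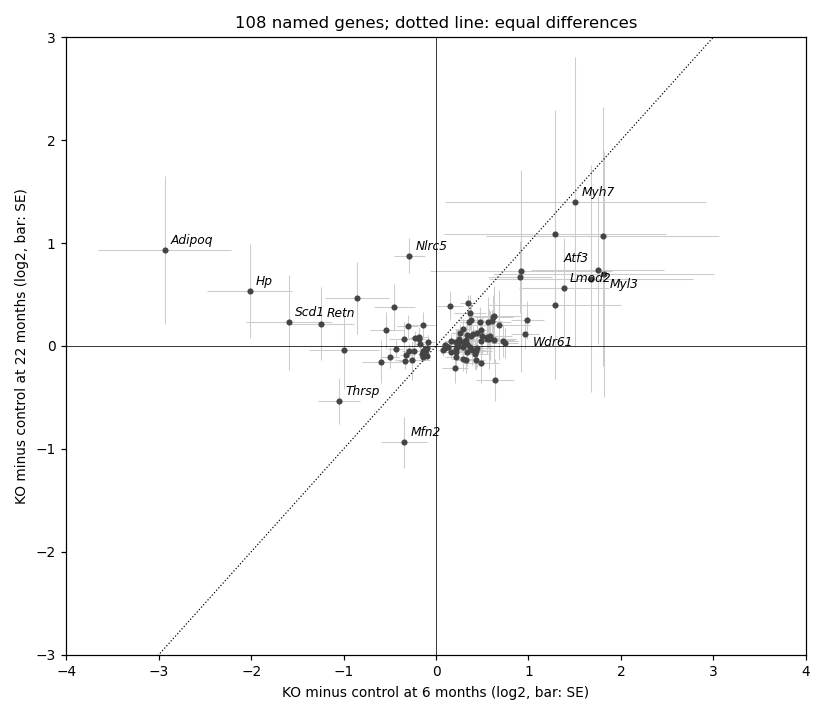
Difference between KO and control at 6 months (x axis) and at 22 months (y axis), both log2, for 108 named genes with SE bars; the dotted line marks equal differences. Adipoq, Hp, Scd1 and Retn lie left of 0 and above 0, Thrsp and Mfn2 lie below 0 at both ages, and the slow fibre genes lie right of 0 and above 0 with wide bars.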

How the data were processed

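RNA of quadriceps from 4 mice per group was amplified from 25 ng, labelled with biotin and hybridised to Affymetrix arrays, per the labels' protocols. The authors deposited 1 log2 signal per probe set and array, computed with RMA and the affy package per the submitters' processing notes, whose versions are not given in the sources used here. RMA evens out the arrays, which can hide a shift shared by most genes. The deposited values were not fully equal in distribution, since the SD of the young arrays still ran from 1.71 to 1.94.

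The table held 45037 probe sets besides 104 controls. Of these 28898 named 1 gene, 551 several and 15588 none, and RefSeq (GRCm38.p6) held the gene ID of 28689. The brightest probe set over 16 arrays stood for a gene (17097 genes, 7180 with more than 1), with no filter on level. No column was left out.

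The comparison used limma 3.58.1 (R 4.3.3) on 16 arrays: 4 group means, replicate number as a block, trended empirical Bayes, two-sided tests and Benjamini-Hochberg adjustment (threshold 0.05). The block follows the titles. The deviations of same-numbered arrays from their group means correlated at 0.289 to 0.780 over 24 pairs, and those of arrays with unlike numbers at a median of -0.455. Taking deviations from group means by itself lowers the correlation of unlike numbers. Between young control and young KO arrays, same-numbered pairs correlated at 0.358 to 0.765, while pairs of unlike numbers reached 0.725 (median -0.421). Some unlike numbers were thus as alike as equal ones. What the number stands for is not given in the labels. The block lowered the median SE from 0.157 to 0.0923. On simulated data (17097 genes, 16 arrays) the fit called 44 of 67 genes changed by 0.5, 64 of 67 changed by 1 and 66 of 66 changed by 2, with 5 false calls. The simulated noise was independent between genes and arrays, with each gene's residual spread in the same fit. Deviations shared across an array were absent, so these counts do not say what the real arrays could detect.

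The named genes were Mfn2, genes called, the 30 genes with the smallest p and 1 direction in all numbers, and up to 4 leading members of each list. The text describes a selection. The 50 lists (1114 symbols, 985 measured) were written from general knowledge. Members, lists and tests were chosen with earlier results of these data known, so they are described by counts and medians without a test. Promoters came from RefSeq (27025 genes with a window). Figures were drawn with matplotlib 3.10.9. Alternatives covered normalization, probe set choice, level filter, family, trend, array weights and leaving out arrays.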

Additional observations from a re-analysis of the deposited data

Results flagged for a closer look

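Single arrays that stood far from the other 3 of their group were sought for 108 named genes in both groups. There were 14 among 216 groups of 4 (6.48%), where chance gives about 5%. Control replicate 3 accounted for 5 of them, KO replicates 3 and 4 for 3 each, and controls 1 and 2 and KO 2 for 1 each.

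In control 3 the oxidative genes Myh2 (9.96) and Slc25a20 (7.40) and the stress genes Ddit3 (5.83) and Hspa5 (7.19) were the lowest of their group, and the fast troponin gene Tnni2 (12.3) was the highest. In KO 4 Atf3 (4.27) and Ndufa9 (11.1) were the lowest of the KO arrays and Actn3 (11.8) the highest. In KO 3 Ucp3 (9.15), Rpl32 (8.03) and Sesn1 (5.93) were the lowest. Scd1 in control 1 (8.06) was far below the other controls, Lep in control 2 (4.56) was far above them, and Wfdc1 in KO 2 (7.79) was below the other KO arrays. The causes were not tested.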

How the results depend on the processing

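The count of genes called at 6 months was 0 under each of 11 alternatives with all 8 young arrays, which include the fit without the replicate block (291 genes at an unadjusted p under 0.05, against 1612 with it). Over 12 fits that left out an array or a number it ran from 0 to 2: 1 gene without control 1 (Hp) and 2 without number 1 in all groups, Hp (-2.48) and Retn (-1.54), both with an adjusted p of 0.0319. The cause was not tested. With the block the unadjusted count lay between 988 (fewer genes tested) and 1810, and was 1096 without control 3, 1051 without KO 3 and 1035 without number 3. At 22 months and for the interaction the block, scaling and family changed no call. The Mfn2 difference ran from -0.57 to -0.15 when 1 number was left out. Many named genes were chosen for a small p or for 1 direction in all numbers. That choice by itself makes reversals rare when arrays are left out, so the next count is a description. Of 108 named genes 100 kept their direction in all settings. The exceptions under another probe set choice were Fabp4 (0.077 for the mean of its probe sets), and, for the most variable probe set, Fabp4 (0.38), Cryab (-0.039), Myh1 (-0.036), Ucp3 (0.11) and Cox5b (-0.025). Car3 reversed without KO 4 (0.021) and without number 4 (0.050), against lowest values of -0.227 when 1 array (KO 2) and -0.248 when 1 number (number 3) was left out, and Tnnt1 (-0.093) and Tnni1 (-0.026) reversed without number 1. Of 1171 list medians over all settings 26 moved by more than the spread between numbers, which is the SD of the 4 medians within numbers. Leaving out 1 number can hardly move a median that far, so this count does not show that the lists are stable. The slow fibre median fell from 1.29 to 0.37 without number 1 and was not counted as moved. With 4 arrays a group, small differences near background cannot be settled.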
